A study of Mus musculus with 12 samples.

Results

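Muscle of NRF2-knockout mice that had exercised on a treadmill was compared with muscle of sedentary NRF2-knockout mice. The comparison uses 6 of the 12 RNA-sequencing libraries of the series, 3 treadmill and 3 sedentary, chosen by their labels, and the other 6 libraries are the same 2 conditions in wild-type mice. All animals were males aged 5 months on a C57BL/6 background, and both knockout groups carry the NRF2 knockout, so the comparison is of exercise within mice that lack NRF2. The labels do not name the muscle, the length or number of exercise sessions, the time between exercise and sampling, the part of the gene that was deleted, or whether samples came from separate animals. P-values therefore measure the spread between these samples alone.

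NRF2, the product of Nfe2l2, is a transcription factor that is held at a low level by KEAP1 and accumulates under oxidative stress, when it switches on genes of glutathione, thioredoxin and quinone metabolism. Contracting muscle produces reactive oxygen species, and endurance exercise is known to change genes of fuel use, mitochondria, blood vessels, sarcomere mechanics and stress signalling. A treadmill comparison in knockout animals shows which of these genes differ when NRF2 is missing.

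The knockout label was checked first. Nfe2l2 had 60, 54 and 58 raw counts in the sedentary knockout libraries and 70, 60 and 84 in the treadmill knockout libraries, against 830 to 1275 in the 6 wild-type libraries. All 6 knockout libraries lay far below all wild-type libraries. Nfe2l2 itself was at 2.29 ± 0.257 CPM in sedentary and 2.89 ± 0.296 CPM in treadmill knockout muscle (SD, n = 3), with no overlap between the groups, and its log2 difference of 0.34 (SE 0.13) did not pass the adjusted test (edgeR quasi-likelihood test, Benjamini-Hochberg adjusted p = 1.0). CPM are counts scaled to a common library total with a TMM normalization factor.

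Total counts of the 6 knockout libraries were 22742972 to 27416622, and 14194 genes had enough counts to be tested. Log2 CPM correlated at 0.989 to 0.993 between knockout libraries. Fast-fibre transcripts lay far above slow-fibre ones in these libraries: Myh4, the myosin of type IIb fibres, was at 29127 to 39410 CPM and Myh7, the slow myosin, at 33.8 to 69.9 CPM. The 16 tested fast-fibre genes summed to 171370 to 199890 CPM per knockout library. The 7 tested mitochondrially encoded mRNAs summed to more, 205940 to 241670 CPM. Among markers of other cell types, Ly6g and Ngp of neutrophils, Krt14, Krt1 and Krt15 of keratinocytes and Ucp1 of brown fat had 0 counts in every knockout library. Other members of these lists were detected. Raw counts summed to 16 to 46 per knockout library for 11 neutrophil markers and 113 to 164 for 7 keratinocyte markers, and 2 of each passed the filter. None of 13 lymphocyte markers passed the filter, with summed counts of 20 to 55.

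Features of the libraries stand before the results. Sedentary replicates 1 and 2 and treadmill replicate 1 were sequenced on lane 3, and sedentary replicate 3 and treadmill replicates 2 and 3 on lane 4, so lane and exercise overlap in part. Treadmill replicate 1 also stood apart in transcripts of liver. Summed over 25 liver transcripts, it held 933 raw counts, against 139 and 200 in the other treadmill libraries and 68, 145 and 98 in the sedentary ones. Alb, the plasma protein albumin, had 510 counts in treadmill replicate 1 and 21 to 65 in the other knockout libraries. Ttr, the thyroid hormone carrier transthyretin, had 21 counts there, 2 and 4 in the other treadmill libraries and 0 in each sedentary library. Only 5 of the 25 passed the filter on low counts. The list was drawn up after these values were seen, and the source of the liver transcripts was not tested.

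**Figure D1:**
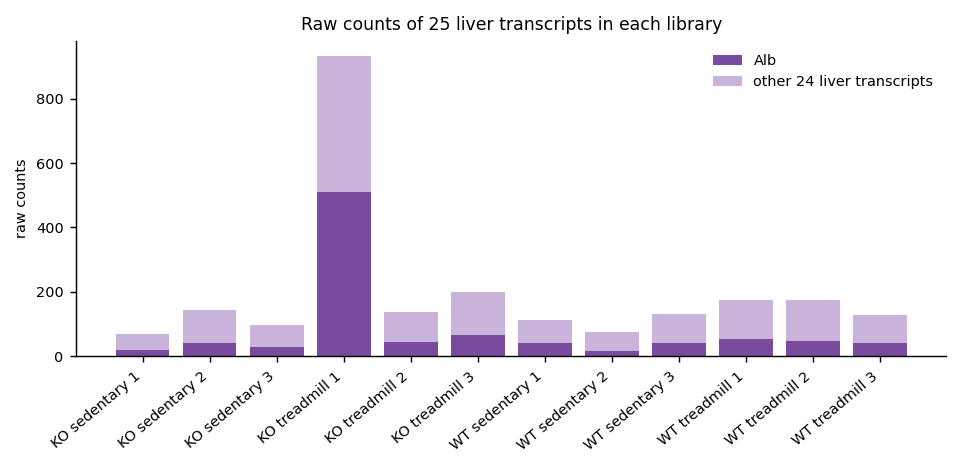
Raw counts (vertical axis) summed over 25 liver transcripts in each of the 12 libraries, with Alb in dark and the other 24 transcripts in light colour. NRF2-knockout treadmill replicate 1 reaches 933 counts, and the other 11 libraries lie between 68 and 200.

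Without lane in the model, no gene was called higher or lower on the treadmill. The edgeR quasi-likelihood test on all 12 libraries called 0 of 14194 genes at an adjusted p under 0.05 (0%). It gave 534 genes an unadjusted p under 0.05 (3.76%), of which 144 were higher (1.01%) and 390 lower (2.75%). DESeq2 also called 0 genes, with 358 under the unadjusted threshold, and limma-voom called 0, with 532. In the 6 knockout libraries alone edgeR again called 0 genes, with 958 of 13875 under the unadjusted threshold (6.9%).

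The genes with the smallest unadjusted p in this fit are given as values. Among those higher on the treadmill, Slc2a3, the glucose transporter GLUT3, had 19.4, 17.8 and 16.2 CPM in sedentary and 24.8, 23.8 and 23.7 CPM in treadmill libraries. Every treadmill library lay above every sedentary library. Odc1, the first enzyme of polyamine synthesis, had 110, 105 and 124 CPM in sedentary and 160, 120 and 140 CPM in treadmill libraries, with overlap between the highest sedentary and the lowest treadmill library. Socs2, a feedback inhibitor of growth hormone signalling, had 7.99, 13.1 and 17.7 CPM in sedentary libraries and 19.8 to 20.6 CPM on the treadmill, without overlap. Cnot9, Tspyl2, Tmpo, Polk, H6pd and Odf3l2 had log2 differences of 0.25 to 0.62. The liver transcript Alb completed the higher genes, with a log2 difference of 2.76.

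On the lower side, Emilin1, a glycoprotein of elastic fibres, had 4.84, 6.68 and 5.80 CPM in sedentary and 3.59, 3.39 and 4.23 CPM in treadmill libraries. Erg, a transcription factor of endothelial cells, had 9.15, 9.79 and 11.0 CPM in sedentary and 7.18, 8.17 and 7.27 CPM in treadmill libraries. Lyn, a kinase of the Src family found in leukocytes, had 7.17, 7.64 and 6.50 CPM in sedentary and 5.27, 5.37 and 4.54 CPM in treadmill libraries. For each of Emilin1, Erg and Lyn, the treadmill libraries all lay below the sedentary ones. Across all tested genes, 816 had every treadmill library above every sedentary one (5.75%) and 959 had every treadmill library below (6.76%).

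With lane added as a term, 32 of 14194 genes passed (0.225%): 11 were higher (0.0775%) and 21 lower (0.148%) on the treadmill. At an unadjusted p under 0.05 there were 1367 genes (9.63%), 496 higher (3.49%) and 871 lower (6.14%). The lane term lowered the common biological coefficient of variation, the typical relative spread between libraries beyond counting error, from 0.112 to 0.0785. It left 5 residual degrees of freedom in place of 8. Lanes 7 and 8 hold 1 wild-type library each, which the lane term fits exactly, so these libraries no longer add to that spread. How much of the fall comes from lanes 3 and 4 was not tested. Without the libraries of lanes 7 and 8, the fit with lane called the same 32 genes. This is no added support, because the lane term already fitted those libraries exactly. Without those libraries and without lane, 0 genes were called. All 32 genes had treadmill and sedentary libraries that did not overlap within lane 3 and within lane 4, where 13.4% of tested genes lay higher and 14.3% lower in this way. Over all 6 libraries, 22 of the 32 did not overlap. Between lanes 4 and 3, which hold different samples, 19 of the 32 differed (edgeR adjusted p under 0.05), beside 0.712% of tested genes. The 32 were chosen by the fit with lane in these same libraries, which favours both the separation within lanes and the difference between lanes, so neither count is support for the calls. With lane in the 6 knockout libraries alone 24 of 13875 genes passed (0.173%), and 16 genes passed in both fits.

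These calls rested on few libraries. Leaving out sedentary replicate 1 gave 38 calls, and leaving out sedentary replicate 2 gave 2, sedentary replicate 3 gave 11, treadmill replicate 2 gave 12 and treadmill replicate 3 gave 7. Without treadmill replicate 1, the library with the liver transcripts and the only treadmill library of lane 3, 1 gene was called and none of the 32: Fkbp5, an immunophilin induced by glucocorticoids, with a log2 fold change of 1.0 (edgeR adjusted p = 0.0216). All 32 genes kept their direction and an unadjusted p under 0.05 in each of these 6 fits. They were chosen in a fit that shares all but 1 library with each of these fits, so this is not independent support. Fzd9 and Lmcd1 passed in 5 of the 6, Egln3 in 4, Fabp3, Atp1b1 and Ankrd2 in 3, and the other genes in 0 to 2. The log2 fold change of Fzd9 ran from -0.96 to -0.85 over these fits and that of Lmcd1 from -0.78 to -0.59. With lane and replicate block together 2 genes passed, Fabp3 and Fzd9.

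**Figure D2:**
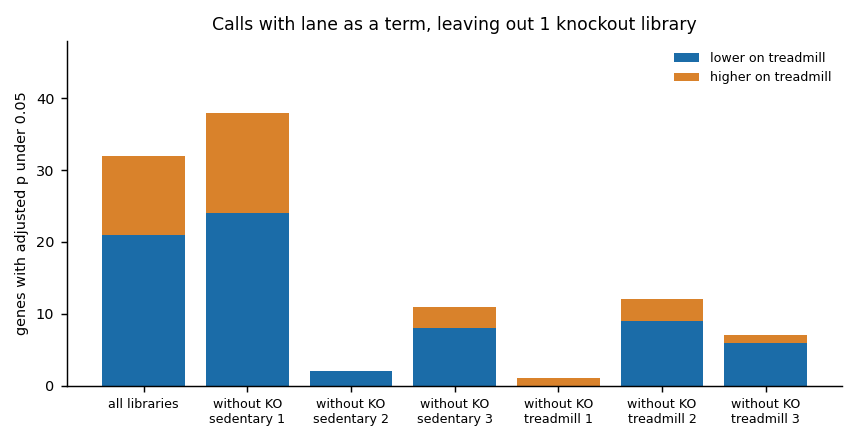
Number of genes with an adjusted p under 0.05 (vertical axis) in the fit with lane, for all libraries and with each knockout library left out in turn, split into genes lower and higher on the treadmill. The count runs from 38 without sedentary replicate 1 to 1 without treadmill replicate 1, beside 32 with all libraries.

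The genes described next were sorted by their known roles after the calls were seen, so the grouping is an order of description and not a tested theme. Ankrd2, a titin-associated ankyrin protein that responds to stretch, Fhl2, a LIM-domain cofactor of the sarcomere and nucleus, Lmcd1, a LIM protein that acts in calcineurin signalling, Myom3, a protein of the M-band, and Vgll2, a cofactor of TEAD transcription factors in muscle, fell with lane in the model. Ankrd2 (chr19:42036000-42045110, plus strand, GRCm38) had 80.5, 97.4 and 99.1 CPM in the sedentary libraries and 50.7, 73.0 and 62.6 CPM in the treadmill libraries. Its group means were 92.3 ± 10.3 and 62.1 ± 11.2 CPM (SD, n = 3), and no treadmill library reached a sedentary one. With lane its log2 fold change was -0.74 (SE 0.12; edgeR quasi-likelihood test, Benjamini-Hochberg adjusted p = 0.0239), and without lane it was -0.57 (SE 0.20; adjusted p = 1.0).

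Lmcd1 (chr6:112273758-112330425, plus strand, GRCm38) had 71.5, 87.2 and 95.4 CPM in sedentary and 47.5, 66.4 and 62.5 CPM in treadmill libraries. The groups did not overlap, and the log2 difference was -0.73 within lane 3 and -0.57 within lane 4. With lane the fold change was -0.68 on the log2 scale (SE 0.09; edgeR adjusted p = 0.0146). Its promoter is shown because Lmcd1 was among the most stable of the calls. The window runs from 250 bases before to 50 after the RefSeq start, chr6:112273508-112273807 on the plus strand of GRCm38.p6, and the capitals mark CAGCTG, an E-box bound by muscle factors such as MyoD, at 168 bases before the start; searched on both strands, these letters occur in 18.3% of 27025 genes with a RefSeq promoter.
Lmcd1: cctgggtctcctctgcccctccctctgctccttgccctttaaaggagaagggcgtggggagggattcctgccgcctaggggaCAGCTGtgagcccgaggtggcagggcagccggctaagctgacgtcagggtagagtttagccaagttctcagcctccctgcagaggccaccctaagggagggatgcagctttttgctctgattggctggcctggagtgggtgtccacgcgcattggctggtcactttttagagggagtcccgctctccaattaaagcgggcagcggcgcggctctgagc
The match is a description of these letters and not a measured binding site.

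Fhl2 was low throughout, at 3.84, 4.50 and 6.28 CPM in sedentary and 1.91, 2.94 and 3.77 CPM in treadmill libraries. The highest treadmill library lay just below the lowest sedentary one, and its log2 fold change with lane was -1.0 (SE 0.15; edgeR adjusted p = 0.0239). Myom3 fell from 32.1 ± 2.86 to 22.2 ± 2.38 CPM and Vgll2 from 18.6 ± 1.56 to 13.1 ± 2.66 CPM (SD, n = 3), with log2 fold changes with lane of -0.67 and -0.66 (edgeR adjusted p = 0.0239 for both).

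The wider list of mechanical stress and Z-disc genes did not shift as a whole. Of 26 tested members, Ankrd2 and Fhl2 passed with lane and both were lower, 14 lay above and 12 below 0 without lane, and the median was 0.01, beside 0.00 over all genes tested (7087 above and 7107 below 0). The libraries of 5 members did not overlap, all lower on the treadmill: Fhl2, Ankrd2, Csrp3, Ankrd1 and Enah, which is 5 of 26 beside 6.76% of all genes. Csrp3, the muscle LIM protein, had 94.4, 133 and 122 CPM in sedentary and 65.4, 75.4 and 68.8 CPM in treadmill libraries. It did not pass in 12 libraries with lane (log2 -0.98, SE 0.27; edgeR adjusted p = 0.226), but passed in the 6 knockout libraries with lane (adjusted p = 0.0337). Hspb7, a small heat shock protein of striated muscle, behaved likewise in the calls, with adjusted p of 0.079 and 0.0337, at 193 to 232 CPM in sedentary and 136 to 149 CPM in treadmill libraries.

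Slow-fibre genes were mostly lower. With lane, 12 of 13 tested members lay below 0, their median was -0.23, and 6 were lower at an unadjusted p under 0.05, where 6.14% of all genes were, but none passed the adjusted test; without lane the median was -0.14. Myl3, the light chain of slow and ventricular myosin, had 129, 174 and 180 CPM in sedentary and 93.5, 167 and 116 CPM in treadmill libraries, and the groups overlapped. Myh7 went the other way in its values, with 33.8, 50.5 and 52.9 CPM in sedentary and 65.8, 69.9 and 44.0 CPM on the treadmill, also with overlap. Of 16 fast-fibre genes, 14 lay above 0 with a median of 0.07. None of these passed, and 4 of them (Tpm1, Tnni2, Myoz1 and Tnnt3) had every treadmill library above every sedentary one, beside 5.75% of all genes.

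**Figure D3:**
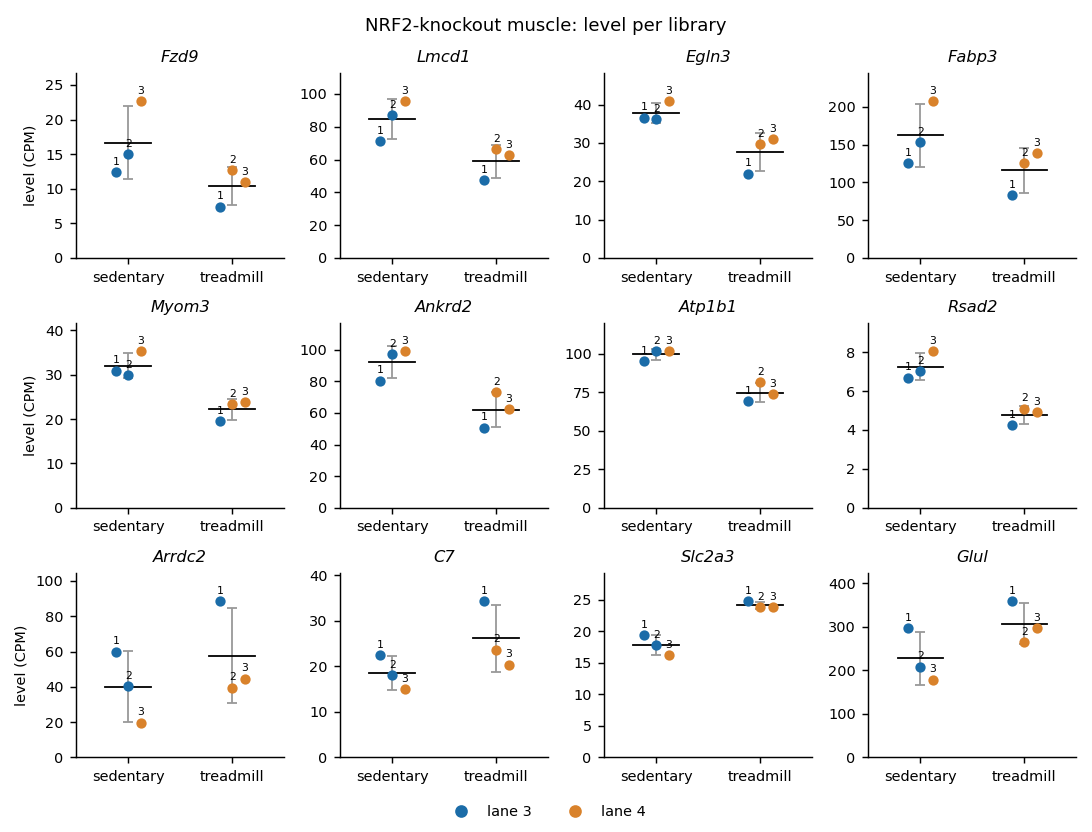
Level in CPM (vertical axis, from 0) of 12 genes called in the fit with lane, in the 3 sedentary and 3 treadmill knockout libraries; numbers give the replicate, colours the lane, horizontal lines the group mean and grey bars the SD. Within each lane the treadmill points of Fzd9 to Rsad2 lie below the sedentary points and those of Arrdc2 to Glul above them, while Fzd9, Fabp3, Arrdc2, C7 and Glul overlap when lanes are ignored.

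Fabp3, the carrier of fatty acids in oxidative muscle and heart, fell with lane in the model. It had 126, 154 and 207 CPM in sedentary and 83.0, 126 and 139 CPM in treadmill libraries. The groups overlapped over all 6 libraries and did not overlap within either lane. Its log2 fold change was -0.66 with lane (SE 0.09; edgeR adjusted p = 0.022) and -0.49 without (SE 0.20; adjusted p = 1.0). Exons of Gm10570 and Zcchc17 overlap Fabp3 on the opposite strand, and the libraries do not mark strand, so their reads cannot be told apart there. Bdh1, the mitochondrial enzyme of ketone body use, fell from 34.9 ± 3.82 to 26.3 ± 5.20 CPM (SD, n = 3; log2 -0.54 with lane, edgeR adjusted p = 0.0383), and it too has an opposite-strand neighbour, Gm15743. Of 36 genes of fatty acid uptake and oxidation, Fabp3 alone passed with lane, 25 lay below 0 without lane, and the median was -0.05.

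Fzd9, a frizzled receptor for Wnt ligands, had the smallest p with lane: it was at 12.4, 15 and 22.6 CPM in sedentary and 7.41, 12.7 and 11.0 CPM in treadmill libraries. Treadmill replicate 2 lay just above the lowest sedentary library, and the log2 fold change was -0.90 (SE 0.10; edgeR adjusted p = 0.00765). Egln3, a prolyl hydroxylase that marks hypoxia-inducible factor for destruction, had 36.6, 36.1 and 40.8 CPM in sedentary and 22, 29.7 and 31.1 CPM in treadmill libraries, without overlap. It fell by 0.56 on the log2 scale (edgeR adjusted p = 0.0217). Atp1b1, the beta subunit of the sodium pump, went from 99.7 ± 3.61 to 74.8 ± 6.31 CPM (SD, n = 3) without overlap, and fell by 0.48 on the log2 scale (edgeR adjusted p = 0.0239); Nme7 overlaps it on the opposite strand. Fxyd6, a regulator of the same pump, Grb14, an adaptor that inhibits the insulin receptor, Rara, a retinoic acid receptor, Atf3, a stress-induced transcription factor, and Aplnr, the apelin receptor of endothelial cells, fell with log2 changes of -0.35 to -0.80 without lane and -0.49 to -0.89 with lane (edgeR adjusted p with lane 0.028 to 0.0446). The remaining genes that fell were Rsad2, Pcp4l1, Rab15, Klhl34, Rflnb and Gm5532.

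Arrdc2 and Glul, 2 members of a list of glucocorticoid-responsive and metallothionein genes, rose with lane in the model. Arrdc2, an arrestin-domain protein, had 60.0, 40.6 and 19.8 CPM in sedentary and 88.6, 39.6 and 44.6 CPM in treadmill libraries. These values overlapped widely. The log2 difference of lane 4 against lane 3 was -1.18. The lanes hold different samples, and replicate 1 was the highest library in each group, so lane, sample and replicate number cannot be told apart. Within lane 3 the treadmill library was higher by 0.84 and within lane 4 the treadmill libraries by 1.09 on the log2 scale. Its log2 fold change was 0.94 with lane (SE 0.15; edgeR adjusted p = 0.0239) and 0.53 without (SE 0.60; adjusted p = 1.0). Glul, glutamine synthetase, had 296, 208 and 178 CPM in sedentary and 359, 265 and 297 CPM in treadmill libraries, and rose with lane by 0.58 (SE 0.11; edgeR adjusted p = 0.0446). The groups overlapped over 6 libraries, and Teddm2 on the opposite strand and Mir8114 on the same strand share its exons.

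Of the 20 tested members of that list, Arrdc2 and Glul passed with lane, 17 lay above 0, and 15 were higher at an unadjusted p under 0.05, where 3.49% of all genes were. The median was 0.39 with lane and 0.24 without, and without lane it was 0.08 when treadmill replicate 1 was left out. Fkbp5 had 49.4, 49.0 and 39.5 CPM in sedentary and 61.0, 68.3 and 79.4 CPM in treadmill libraries, without overlap (log2 0.70 with lane; edgeR adjusted p = 0.0934). Mt2, a metal-binding metallothionein, had 7.38, 7.12 and 6.50 CPM in sedentary and 9.83, 10.6 and 15.7 CPM in treadmill libraries, without overlap (log2 0.79 with lane; adjusted p = 0.236). Angptl4, an inhibitor of lipoprotein lipase, lay on the other side, at 5.10, 15.6 and 9.90 CPM in sedentary and 4.57, 2.80 and 9.01 CPM in treadmill libraries. Of 20 clock genes none passed, and their median was 0.05 without lane and 0.15 with lane.

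The other genes that rose with lane were of mixed roles. Slc2a3, given above, rose by 0.51 on the log2 scale (SE 0.08; edgeR adjusted p = 0.0264). C7, a complement component of the membrane attack complex, had 22.5, 18 and 15 CPM in sedentary and 34.3, 23.7 and 20.4 CPM in treadmill libraries, and rose by 0.65 (SE 0.10; edgeR adjusted p = 0.0239) although the groups overlapped. Slc25a30, a mitochondrial carrier, went from 16.8 ± 4.16 to 25.2 ± 4.52 CPM, Plin4, a coat protein of lipid droplets, from 94.3 ± 10.6 to 119 ± 13.2 CPM, and Nudt18, a hydrolase of oxidized nucleotides, from 15.9 ± 2.32 to 21.1 ± 4.63 CPM (SD, n = 3). Hdgfl2 overlaps Plin4 on the opposite strand. Ifi205, an interferon-inducible gene, and Gm10032 also rose, by 0.77 and 0.86 with lane (edgeR adjusted p = 0.0299 and 0.0398).

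The liver transcripts Apoa2 and Serpina3k were called with lane and, like the other calls, did not pass without treadmill replicate 1. Apoa2, a high-density lipoprotein protein, had 3, 2 and 2 raw counts in sedentary and 33, 7 and 15 in treadmill libraries; its log2 fold change was 3.20 with all libraries and 2.50 without that library (edgeR adjusted p = 0.0239 and 0.327). Serpina3k, a plasma protease inhibitor, whose exons overlap those of Serpina3m on the same strand, had 2, 6 and 3 against 60, 6 and 26 raw counts. Its log2 fold changes were 3.33 and 2.22 with and without that library (edgeR adjusted p = 0.0398 and 0.499). Alb passed only in the 6 knockout libraries with lane (adjusted p = 0.0337), and its log2 fold change with lane in 12 libraries was 2.90 with that library and 0.82 without it.

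Interferon-stimulated genes lay almost uniformly lower on the treadmill. Of 27 tested members 26 were below 0 without lane (96.3%, beside 50.1% of all genes tested), the median was -0.24, and all 27 were below 0 with lane. Rsad2, the antiviral enzyme viperin, was the only member that passed, and only with lane. It had 6.69, 7.04 and 8.06 CPM in sedentary and 4.25, 5.10 and 4.93 CPM in treadmill libraries, without overlap. Its log2 fold change was -0.68 with lane (SE 0.11; edgeR adjusted p = 0.0244) and -0.61 without (SE 0.15; adjusted p = 1.0), and it was -0.68 within each lane. Gbp3, an interferon-inducible GTPase, had 9.67, 9.27 and 12.3 CPM in sedentary and 8.66, 8.63 and 6.04 CPM in treadmill libraries, again without overlap, and did not pass. The libraries of 6 of the 27 members did not overlap, all lower, beside 6.76% of all genes. The summed level of the list was 178.6, 170.0 and 176.5 CPM in sedentary and 154.9, 163.0 and 137.7 CPM in treadmill libraries. Leaving out any knockout library kept the median without lane between -0.29 and -0.13, the last without treadmill replicate 3.

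Promoters of 2 members are shown because most list members with a RefSeq promoter share a sequence. The interferon-stimulated response element, searched as GAAA, any 2 bases and GAAA on both strands, occurs in 12 of the 19 list members with a RefSeq promoter (63.2%), against 3.99% of 27025 genes. Capitals mark the matches; both windows are 250 bases before to 50 after the start, from RefSeq on GRCm38.p6, Rsad2 at chr12:26456403-26456702 on the minus strand and Gbp3 at chr3:142559794-142560093 on the plus strand. The Gbp3 matches overlap each other, and both genes carry the element as its reverse complement.
Rsad2: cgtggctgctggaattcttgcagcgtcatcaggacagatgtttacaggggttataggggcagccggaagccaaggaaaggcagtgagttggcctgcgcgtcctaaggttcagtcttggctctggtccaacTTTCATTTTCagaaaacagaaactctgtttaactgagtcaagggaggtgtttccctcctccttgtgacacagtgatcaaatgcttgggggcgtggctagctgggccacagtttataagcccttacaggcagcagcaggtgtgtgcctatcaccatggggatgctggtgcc
Gbp3: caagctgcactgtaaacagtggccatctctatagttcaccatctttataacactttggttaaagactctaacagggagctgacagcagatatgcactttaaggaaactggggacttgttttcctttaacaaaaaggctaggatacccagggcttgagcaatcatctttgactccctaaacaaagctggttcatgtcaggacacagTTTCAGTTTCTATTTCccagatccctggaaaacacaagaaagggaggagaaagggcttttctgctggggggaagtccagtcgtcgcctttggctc
The match lies 120 bases before the start in Rsad2, and the matches lie 45 and 39 bases before the start in Gbp3. The Rsad2 window also holds, elsewhere and as the reverse complement, the letters TGAC, any 3 bases and GCA of the antioxidant response element bound by NRF2. Searched on both strands, these letters occur in 3.45% of all genes with a promoter. These are matches of letters, not measured binding. Of the genes called with lane, Ifi205 and Glul also held the interferon element, and both rose.

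Most matrix genes and most macrophage and antigen-presentation markers also lay lower. Of 37 extracellular matrix and fibroblast genes 34 were below 0 without lane, with a median of -0.20, and 12 had every treadmill library below every sedentary one, beside 6.76% of all genes. None passed in 12 libraries with or without lane. Postn, the matrix protein periostin, had 60.9, 99.6 and 75.4 CPM in sedentary and 26.7, 41.1 and 25.1 CPM in treadmill libraries. All treadmill libraries lay under all sedentary ones, and Postn passed in the 6 knockout libraries with lane (edgeR adjusted p = 0.0337) and not in 12 libraries (log2 -1.70, SE 0.45; adjusted p = 0.189). Bgn, the small proteoglycan biglycan, had 84.3, 101 and 77.4 CPM in sedentary and 68.5, 62.1 and 65.1 CPM in treadmill libraries, also without overlap. The median of the list was -0.03 within lane 3 and -0.28 within lane 4. In bulk tissue, fewer cells of a type and less RNA per cell cannot be told apart.

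Of 25 macrophage and antigen-presentation markers 22 lay below 0, with a median of -0.23 (-0.42 without treadmill replicate 1, -0.15 without treadmill replicate 3), and none passed. Ccr2, the chemokine receptor of recruited monocytes, had 9.72, 17.5 and 14.6 CPM in sedentary and 9.05, 8.49 and 6.20 CPM in treadmill libraries. H2-Eb1, an antigen-presenting MHC class II chain, had 24.3, 35.2 and 29.3 CPM in sedentary and 22.7, 18.6 and 12.7 CPM in treadmill libraries. Neither gene overlapped between groups. The summed level of these markers was 504 to 653 CPM in sedentary and 368 to 537 CPM in treadmill libraries, and they moved in the same direction as the interferon and matrix lists; their part in those results was not tested. Lyve1, a marker of resident macrophages and lymphatic vessels, was an exception at 18.7, 16.7 and 13.8 CPM against 21.3, 20.2 and 18.3 CPM.

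Blood, fat and tendon markers were lower in their medians, and none passed. Of 9 erythroid markers 8 lay below 0 (median -0.52, and -0.28 without sedentary replicate 1), and their summed level of 579 to 815 CPM in sedentary and 555 to 733 CPM in treadmill libraries overlapped. Of 13 adipocyte markers 11 lay below 0 (median -0.40), with summed levels of 2637 to 3800 CPM against 2950 to 3385 CPM. Their median was -0.26 with lane, 0.01 within lane 4, and without lane 0.10 when sedentary replicate 2 was left out. Sedentary replicate 2 was the highest library for Fabp4, the fatty acid carrier of adipocytes and endothelium, at 449 CPM against 215 to 286 CPM in the other knockout libraries. Of 12 tenocyte markers 11 lay below 0 (median -0.18), and this median changed sign with lane when sedentary replicate 3 was left out. Of 27 endothelial and angiogenic genes 20 lay below 0 (median -0.09), and Aplnr passed with lane.

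**Figure D4:**
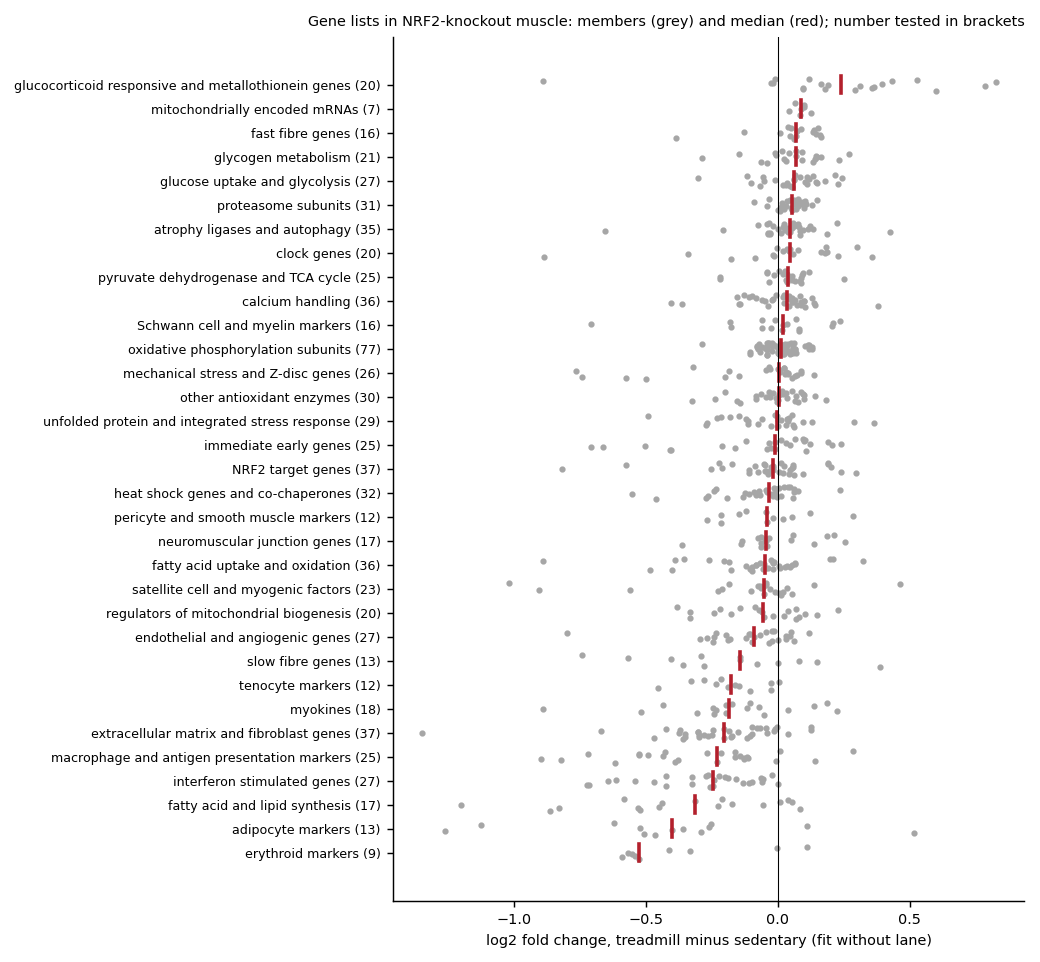
Log2 fold change between treadmill and sedentary knockout muscle (horizontal axis, fit without lane) of each tested member (grey points) of 33 gene lists, with the list median in red and the number tested in brackets. The medians run from -0.52 for erythroid markers to 0.24 for glucocorticoid-responsive genes, and no plotted gene passed the adjusted test in this fit.

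NRF2 target genes and other antioxidant genes showed no call in either fit. Of 37 tested targets 16 lay above and 21 below 0, with a median of -0.02, and 1 had an unadjusted p under 0.05. Nqo1, a quinone reductase and classical NRF2 target, had 10.2, 9.83 and 9.05 CPM in sedentary and 10.3, 10.1 and 9.93 CPM in treadmill libraries. The groups overlapped, as they did for Hmox1, which breaks down haem, at 4.81 to 7.17 against 5.28 to 6.71 CPM, for Gclc, the rate-limiting enzyme of glutathione synthesis, at 10.1 to 12.0 against 9.58 to 11.2 CPM, and for Txnrd1, thioredoxin reductase, at 38.0 to 41.1 against 37.9 to 41.7 CPM. Sod2, the mitochondrial superoxide dismutase, was at 206 to 215 and 203 to 248 CPM. Of 30 other antioxidant enzymes 16 lay above 0, with a median of 0.00. Catalase had every treadmill library below every sedentary one, a separation that did not pass (log2 -0.14, edgeR adjusted p = 1.0).

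Genes often followed after exercise were likewise not called. Ppargc1a, the coactivator of mitochondrial biogenesis, had 56.0, 49.2 and 53.2 CPM in sedentary and 53.8, 45.5 and 66.7 CPM in treadmill libraries. Pdk4, the kinase that shuts off pyruvate oxidation, had 564, 495 and 632 CPM in sedentary and 764, 238 and 1009 CPM in treadmill libraries. The treadmill spread of Pdk4 was wider than its difference between groups. Tfam, the mitochondrial transcription factor, lay at 60.1 to 60.7 against 61.4 to 61.6 CPM, which do not overlap but differ by 0.02 on the log2 scale. Ucp3, Hk2, Slc2a4, Vegfa and Nr4a3 had log2 differences of 0.32, 0.03, 0.05, -0.20 and -0.03, with no call in either fit.

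Subunits of oxidative phosphorylation had 52 of 77 above 0 and a median of 0.01 without lane, and 30 above 0 and a median of -0.0073 with lane. All 7 mitochondrially encoded mRNAs that were tested, of 13 listed, lay above 0, with a median of 0.09. Proteasome subunits lay above 0 in 27 of 31 cases with a median of 0.05, and glycolytic genes in 20 of 27 with a median of 0.06. Regulators of mitochondrial biogenesis had a median of -0.06. With lane, 6 of 20 were lower and 1 higher at an unadjusted edgeR p under 0.05, beside 6.14% and 3.49% of all genes. The 17 genes of fatty acid and lipid synthesis had a median of -0.31 with 13 below 0. That median rested on sedentary replicate 2. The summed level of the list was 1032, 2102 and 1104 CPM in sedentary and 1262, 1267 and 912 CPM in treadmill libraries. Without sedentary replicate 2 the median was 0.02. Fasn, fatty acid synthase, had 26.9, 142 and 39.2 CPM in sedentary and 38.1, 51.6 and 25.2 CPM in treadmill libraries. In these lists no gene passed in either fit. Esrra, a nuclear receptor of oxidative genes, had 82.7, 82.8 and 81.0 CPM in sedentary and 68.9, 77.4 and 72.0 CPM in treadmill libraries, and Sirt3, a mitochondrial deacetylase, 24.8, 22.3 and 24.8 against 19.2, 21.6 and 21.0 CPM. Both lay lower on the treadmill without overlap.

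The treadmill difference in knockout muscle was set against that in wild-type muscle by an interaction contrast in the same fit. No gene passed without lane (0%), with 270 under an unadjusted p of 0.05 (1.9%), and none passed with lane (0%), with 730 under it (5.14%); DESeq2 called 4 with lane. The wild-type libraries numbered 1 were alone on lanes 7 and 8, so with lane the wild-type difference rests on replicates 2 and 3. Of the 32 genes called with lane, 29 had an unadjusted interaction p under 0.05 with lane and 6 without lane; they were chosen by the knockout difference, which is part of the interaction, so this count is not independent of the choice.

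Arrdc2 had the smallest adjusted interaction p of the 32 with lane. In wild-type muscle it had 109, 49.1 and 28.3 CPM in sedentary and 101, 40.7 and 13.9 CPM in treadmill libraries, a log2 difference with lane of -0.62 (SE 0.18), against 0.94 in the knockout. The difference between genotypes was 1.55 with lane (SE 0.23; edgeR adjusted p = 0.164). Without lane the wild-type difference was -0.26, the knockout difference 0.53 and the interaction 0.79 (SE 0.85; adjusted p = 1.0). Fabp3 had 136, 112 and 140 CPM in wild-type sedentary and 112, 127 and 162 CPM in wild-type treadmill libraries. Its wild-type log2 difference was 0.05 without lane and 0.20 with lane, where it rests on replicates 2 and 3, against -0.49 and -0.66 in the knockout. The interaction was -0.54 without lane (SE 0.28; edgeR adjusted p = 1.0) and -0.85 with lane (SE 0.14; adjusted p = 0.207). Erg, called in neither, had 6.20 to 7.76 CPM in wild-type sedentary and 7.89 to 8.90 CPM in wild-type treadmill libraries, higher without overlap, where the knockout was lower without overlap (interaction -0.65 without lane, edgeR adjusted p = 1.0).

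The 5 genes with the smallest interaction p without lane were low in expression. Nim1k, a kinase related to AMPK, had 2.72, 2.74 and 2.88 CPM in sedentary knockout, 1.33, 2.03 and 2.27 CPM in treadmill knockout, 1.92 to 2.15 CPM in sedentary wild-type and 2.56 to 3.19 CPM in treadmill wild-type libraries. Its groups did not overlap within either genotype and lay in opposite order. Cabyr, a calcium-binding protein of sperm, Gm8245, 4930512H18Rik and Xlr3b lay below 1.2 CPM in every library. Their interaction values were -1.89, -2.52, 2.34 and 2.68, and none passed (edgeR adjusted p = 1.0).

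Lists differed in their medians between genotypes without a call. Erythroid markers had a median of -0.52 in the knockout and 0.61 in wild type, and Hbb-bt, an adult beta-globin, had an interaction of -1.19 without lane (SE 0.36; edgeR adjusted p = 1.0). The glucocorticoid list had a median of 0.39 in the knockout and -0.06 in wild type with lane. Fatty acid uptake and oxidation genes had -0.07 (29 of 36 below 0) and 0.14 (32 of 36 above 0) with lane. Endothelial and angiogenic genes had -0.10 (21 of 27 below 0) and 0.18 (24 of 27 above 0). Adipocyte markers had -0.26 and 0.32, and clock genes 0.15 and -0.15. Over all genes tested the medians with lane were 6.6e-05 and -0.0045. With lane, matrix genes had -0.17 in the knockout and -0.19 in wild type, where 37 of 37 lay below 0, macrophage markers -0.27 and -0.55, where 25 of 25 wild-type members lay below 0, and interferon-stimulated genes -0.25 and -0.11. Without lane, interferon-stimulated genes had -0.24 and -0.08, matrix genes -0.20 and -0.10, macrophage markers -0.23 and -0.12, slow-fibre genes -0.14 and -0.37, and mechanical and Z-disc genes 0.01 and -0.03. Whether list medians differ between genotypes was not tested.

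**Figure D5:**
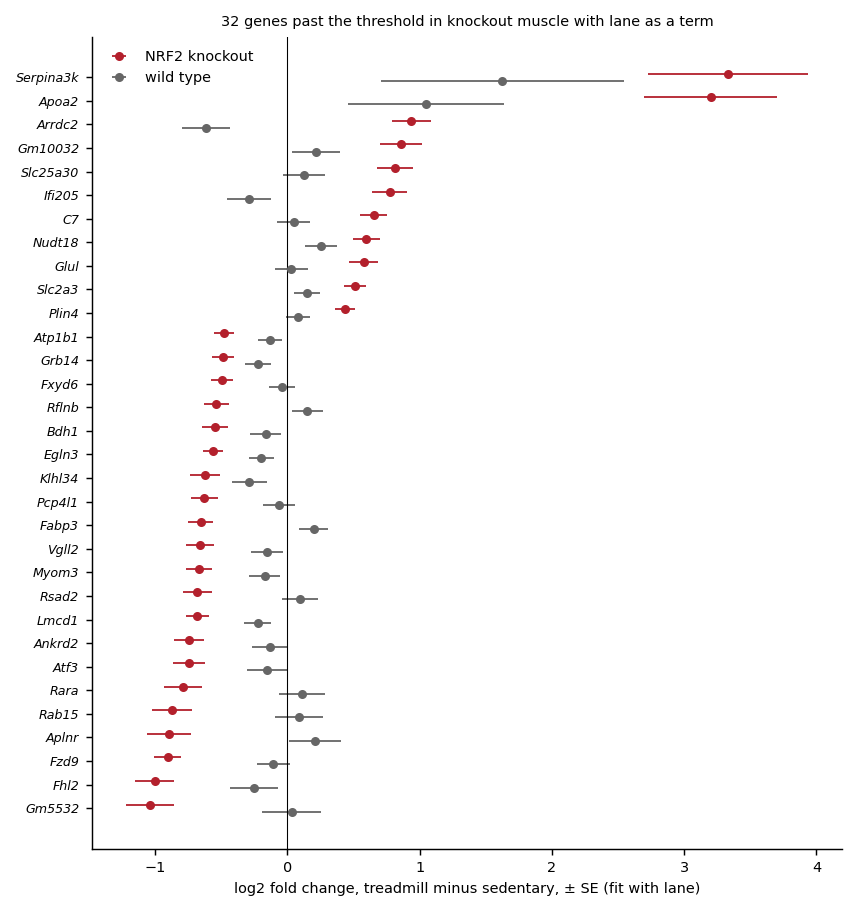
Log2 fold change between treadmill and sedentary muscle, with its SE (horizontal axis, fit with lane), for the 32 genes called in knockout muscle, in the NRF2 knockout (red) and in wild type (grey). Wild-type values of 9 genes have the opposite sign, and the difference between genotypes passed the adjusted test for none of them.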

How the data were processed

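RNA sequencing covered 12 muscle samples, and the labels give their 4 groups of 3, their lanes and their age. Library preparation used the Illumina TruSeq RNA kit (version 2), per the labels' protocols, and this kit keeps no strand information. The submitters' processing notes list STAR 2.4.1d, featureCounts 1.4.6-p4, bcl2fastq 1.8.4 and GRCm38. The annotation release and the handling of multiply mapped reads were not stated. Raw counts for 47729 Ensembl genes, as deposited by the authors, were the only values used, and 47310 of the genes matched a symbol in GENCODE or in gene name tables. A deposited RPKM table was not used here, because its values are not proportional to counts over each library's own total.

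Tests used edgeR 4.0.16 (R 4.3.3): TMM scaling, filterByExpr with a minimum count of 10 and a minimum total of 15, which kept 14194 genes holding 99.94% of counts, and a quasi-likelihood fit of all 12 libraries with 1 coefficient for each group. Benjamini-Hochberg adjustment ran over every tested gene, with a threshold of 0.05. The same fit with lane as a term was the stated check. No pair of knockout libraries had a mean chi-square per gene under 6.18, where sampling noise gives a value near 1. Alternatives were the 6 knockout libraries alone, DESeq2 1.42.0, limma-voom (limma 3.58.1), other scalings and filters, a replicate block, and leaving out each knockout library.

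The groups share replicate numbers, which were not taken to pair the libraries. Members and gene lists were chosen with earlier results of these data known. Named genes were drawn by a rule from 15 fixed genes, the 10 with the smallest p in each direction, up to 10 calls in each direction with lane, for each list up to 4 that passed or else the 2 with the smallest p, and 5 for the interaction. Not every gene that the rule picked is described: Foxo6os, Akr1c14, Ttc9, Egr1 and Egr2 are among those left out. Beyond the genes of the rule, the remaining calls with lane, other members of lists named for libraries that did not overlap, Apoa2, Lyve1, Ttr and the promoters of Gbp3 and Lmcd1 were chosen after their values were seen. Promoters were searched for an interferon-stimulated, an antioxidant, a glucocorticoid and an HNF1 element, a MEF2 box and an E-box.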

Additional observations from a re-analysis of the deposited data

How the results depend on the processing

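Without lane, the count of 0 calls became 139 with no filter on low counts, 32 with lane in 12 libraries and 24 with lane in the 6 knockout libraries, and it was 0 under the other settings run without a block, including each library left out. Deviations of same-numbered sedentary and treadmill libraries correlated at 0.172, 0.075 and 0.221, and those of differently numbered ones at -0.242 to 0.06. In both knockout groups replicate 1 was on lane 3 and replicate 3 on lane 4, so replicate number and lane overlap in part. Whether replicate numbers mark pairs was not tested. With the replicate block edgeR called 0 genes in 12 libraries and 50 in the 6 knockout libraries alone. With lane, the count of 32 became 52 with DESeq2, 438 with no filter and 2 (Fabp3 and Fzd9) with lane and replicate block together. Over libraries left out it was 38, 2 and 11 without sedentary replicates 1 to 3, and 1, 12 and 7 without treadmill replicates 1 to 3. The interaction count of 0 became 68 with no filter, and with lane 4 with DESeq2, 139 with no filter, 3 without sedentary replicate 1 and 2 without sedentary replicate 2. The cause of these changes was not tested.

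Some genes and list medians, not all of them near 0, changed sign without a call. Scaling by library totals gave log2 values of -0.019 for Hmox1, -0.041 for Txnrd1, -0.036 for Tfam, -0.030 for Hk2 and -0.012 for Slc2a4, and with lane -0.025 for Txnrd1, -0.035 for Tfam and -0.013 for Sod2. With 1 library left out and no lane, values ran from -0.088 to 0.19 for Hmox1, -0.087 to 0.041 for Gclc, -0.0090 to 0.057 for Txnrd1, -0.084 to 0.19 for Ppargc1a, -0.17 to 0.65 for Pdk4, -0.084 to 0.25 for Hk2, -0.68 to 0.22 for Nr4a3 and -0.0038 to 0.14 for Sod2. With lane, leaving out sedentary replicate 1 gave Gclc 0.048, sedentary replicate 2 gave Hmox1 -0.059, and treadmill replicate 3 gave Gclc 0.043, Txnrd1 -0.00036, Ppargc1a -0.077, Pdk4 -0.24 and Sod2 -0.015. The median of mitochondrial biogenesis regulators was 0.015 with lane and replicate block and 0.0053 with lane without treadmill replicate 1, and that of tenocyte markers was 0.039 with lane without sedentary replicate 3. Depth limits the liver transcripts, most of which had too few counts to be tested.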
